A study of Bos taurus with 6 samples.

Results

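The miR-181 family was represented in cultured bovine fat cells by 4 rows, bta-miR-181a, bta-miR-181b, bta-miR-181c and bta-miR-181d, of 771 known microRNAs (miRNAs) in a small RNA sequencing table. The members were chosen by name, that is, every known miRNA with the name of one of these 4, with or without an arm ending. No row with a 5p or 3p ending was among them, and the table's type column entered miR-181b as hairpin and the other 3 as mature. The libraries were 3 of adipocytes and 3 of preadipocytes. The adipocytes were preadipocytes induced with insulin, dexamethasone, rosiglitazone and IBMX, and both came from Holstein cattle at passage 4 to 6 and grew in F12/DMEM with serum and antibiotics. The design asked which miRNAs differ between the 2 cell states. Whether the replicates are separate animals or cultures is not in the labels, and the spread between libraries may be technical. Values per library are given in the order of replicates 1, 2 and 3.

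miRNAs are short RNAs that guide Argonaute proteins to matching sites in mRNAs, mostly through a seed near their 5′ end, and lower the output of those mRNAs. The mature miR-181 sequences share 1 seed and are made from paired hairpins, an a with a b hairpin at each of the a/b loci and c with d at a separate locus. In mice miR-181a is known for setting the sensitivity of T cell receptor signalling during thymocyte development, and in pigs it has been described as promoting fat accumulation in preadipocytes. In mouse blood vessels miR-181b has been described as restraining NF-kB signalling.

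The gene table of the RefSeq assembly ARS-UCD2.0 held 6 miR-181 genes for these 4 names. MIR181A-1 and MIR181B-1 neighbour each other outside any annotated gene, with PTPRC the nearest protein-coding gene. MIR181A-2 and MIR181B-2 neighbour each other within NR6A1, an orphan nuclear receptor gene. MIR181C and MIR181D neighbour each other within the span of NANOS3, and their nearest other miRNA genes are MIR23A, MIR27A and MIR24-2. The build behind the counts is not stated in these sources, so this table served for names and neighbours only. A read of miR-181a or miR-181b cannot be assigned to 1 of its 2 loci.

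Known and predicted miRNAs took 14525284 to 22283754 reads per library, and levels below are CPM (counts-per-million) of these reads after scaling with edgeR's TMM factors. The family took 7083, 6456 and 7644 reads in the adipocyte libraries, and 7243, 4985 and 7805 reads in the preadipocyte libraries. The smallest count of any member in any library was 265, with an exact 95% Poisson interval of 234 to 299, which covers counting error only. All 4 members passed the low-count filter in a fit over 414 miRNAs, in which edgeR's quasi-likelihood test with Benjamini-Hochberg (BH) adjustment called 26 (6.28%), 16 higher and 10 (2.42%) lower in adipocytes. With upper-quartile factors 15 were higher and 34 lower, and the median log2 difference of all miRNAs was -0.31, against -0.02 with TMM factors. Scaling by totals alone gave 88 higher, 9 lower and a median of 0.62. Without adjustment 34.1% of the 414 had a p under 0.05, and DESeq2 with BH adjustment called 96 (23.2%). The TMM factors lay between 1.02 and 1.40 in adipocytes and between 0.735 and 0.845 in preadipocytes.

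Of the 4 members, only miR-181c passed the test, and it fell, to 0.334 times its preadipocyte level. It had 509, 412 and 523 reads in the adipocyte libraries, against 1219, 594 and 1352 reads in the preadipocyte libraries. Its levels were 25.2, 19.5 and 26.7 CPM in adipocytes and 83.3, 48.4 and 82.6 CPM in preadipocytes. Every adipocyte library lay below every preadipocyte library in raw counts and in CPM, and preadipocyte replicate 2 stood nearest to the adipocytes. The log2 difference of adipocytes over preadipocytes was -1.58 (SE 0.35, 95% interval -2.41 to -0.75, edgeR BH-adjusted p = 0.0481), and 10.6% of the tested miRNAs had a lower one. In rat heart miR-181c has been described as acting on a mitochondrial transcript.

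This call lay close to the threshold. With 1 library left out it held only without preadipocyte replicate 3 (edgeR BH-adjusted p = 0.0278), and the adjusted p was 0.168, 0.185 and 0.0814 without adipocyte replicates 1, 2 and 3 and 0.121 and 0.0649 without preadipocyte replicates 1 and 2. The log2 difference in these fits stayed between -1.87 and -1.45. With library totals alone it was -0.95 and missed the threshold (edgeR BH-adjusted p = 0.0806), against a median of 0.62 for all miRNAs on that scale. With no low-count filter the difference was -1.48 and also missed it (edgeR BH-adjusted p = 0.0774).

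The most abundant member was miR-181a, whose levels were 245, 197 and 276 CPM in the adipocyte libraries, and 298, 228 and 303 CPM in the preadipocyte libraries. The groups overlapped, and replicate 2 was the lowest library of each. The log2 difference was -0.21 (SE 0.27, 95% interval -0.85 to 0.43, edgeR BH-adjusted p = 0.598), so that a change of up to 0.85 downwards or 0.43 upwards on this scale lay within the interval. With library totals alone the estimate was 0.41, still below the median of all miRNAs on that scale. Among the 771 known miRNAs, miR-181a ranked between 68 and 85 by reads in the adipocyte libraries, and between 65 and 73 in the preadipocyte libraries.

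The hairpin-type row, miR-181b, had levels of 61.8, 68.3 and 68.6 CPM in the adipocyte libraries, and 87.1, 108 and 60.9 CPM in the preadipocyte libraries. The preadipocyte libraries were spread widely, with replicate 3 below every adipocyte library. Its log2 difference was -0.36 (SE 0.31, 95% interval -1.11 to 0.38, edgeR BH-adjusted p = 0.426), and 0.25 with library totals alone. By reads it ranked between 116 and 123 in the adipocyte libraries, and between 96 and 123 in the preadipocyte libraries.

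The least abundant member by CPM, miR-181d, is the hairpin neighbour of miR-181c and has been described in human glioma as lowering the DNA repair enzyme MGMT. It had 386, 434 and 374 reads in the adipocyte libraries, and 392, 265 and 495 reads in the preadipocyte libraries, and the groups overlapped in raw counts. Its levels were 19.1, 20.5 and 19.1 CPM in adipocytes and 26.8, 21.6 and 30.2 CPM in preadipocytes, which did not overlap. The log2 difference was -0.42 (SE 0.28, 95% interval -1.09 to 0.26, edgeR BH-adjusted p = 0.310), and 0.23 with library totals alone. On the CPM scale the adipocyte libraries lay wholly below the preadipocyte ones for miR-181c and miR-181d, as they did for 20.5% of all tested miRNAs; the groups lay apart in either direction for 44.7%.

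**Figure D1:**
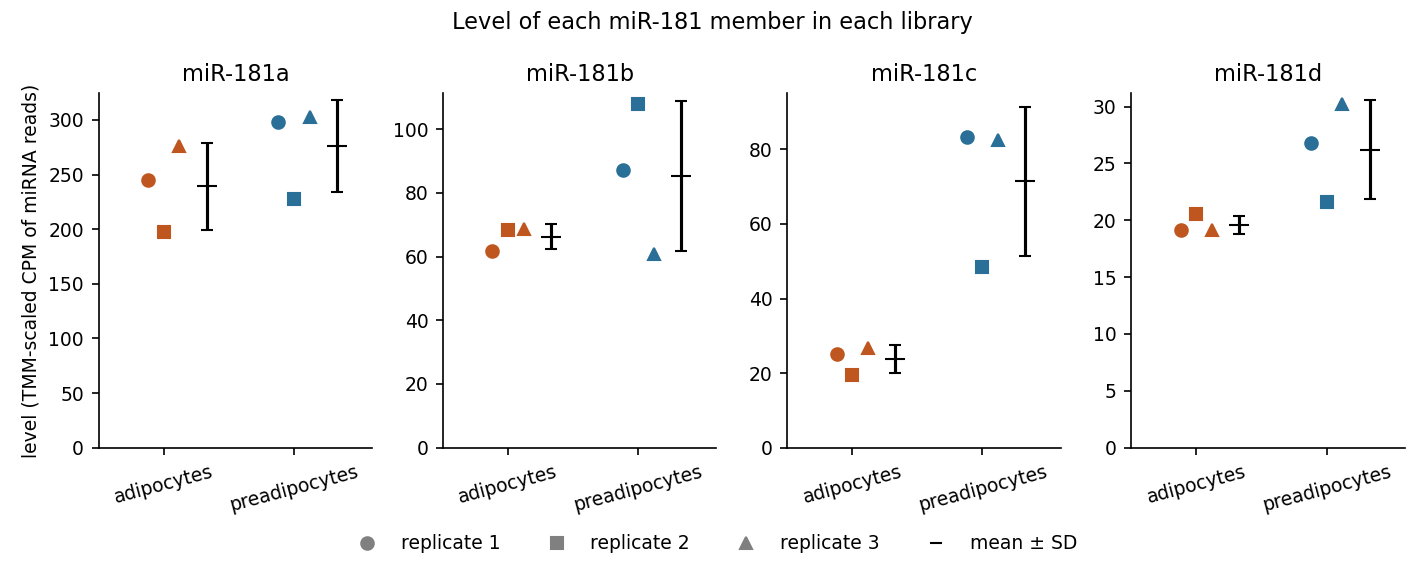
Levels of the 4 miR-181 members (y axis, TMM-scaled CPM of miRNA reads, from 0) in each library, with adipocytes left of preadipocytes, 1 symbol per replicate and bars for mean ± SD (n = 3 each). The adipocyte levels of miR-181c (19.5 to 26.7 CPM) lie well below its preadipocyte levels (48.4 to 83.3 CPM), while the groups overlap for miR-181a and miR-181b.

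The order by mean level was miR-181a, miR-181b, miR-181c and miR-181d in both cell states. In adipocytes miR-181a averaged 239 ± 39.9 CPM, miR-181b 66.3 ± 3.86, miR-181c 23.8 ± 3.82 and miR-181d 19.6 ± 0.817 CPM (SD, n = 3). In preadipocytes the means were 276 ± 41.9 CPM for miR-181a, 85.3 ± 23.5 for miR-181b, 71.4 ± 20.0 for miR-181c and 26.2 ± 4.36 CPM for miR-181d (SD, n = 3). The neighbours whose ranges crossed were miR-181c and miR-181d in adipocytes, and miR-181b and miR-181c in preadipocytes. These are all CPM levels, which are not divided by length.

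Summed reads were fitted as well, because near-identical miRNAs can exchange reads in the counting. The sum of all 4 members averaged 348 ± 43.9 CPM in adipocytes and 461 ± 47.1 CPM in preadipocytes (SD, n = 3 each), a log2 difference of -0.40 (SE 0.24, 95% interval -0.98 to 0.17, edgeR BH-adjusted p = 0.252, in a table where 5.6% of rows were called). The sum of miR-181a and miR-181b, at 305 ± 40.8 and 363 ± 24.8 CPM, differed by -0.25 (SE 0.24, 95% interval -0.82 to 0.32, edgeR BH-adjusted p = 0.469).

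The sum of the neighbours miR-181c and miR-181d was 43.9, 39.9 and 46.0 CPM in the adipocyte libraries, and 110, 70.1 and 113 CPM in the preadipocyte libraries. No adipocyte library reached the lowest preadipocyte one. The log2 difference was -1.18 (SE 0.31, 95% interval -1.92 to -0.44), and its edgeR BH-adjusted p of 0.0618 missed the threshold, in a table where 5.58% of rows were called. It passed with upper-quartile factors, with a minimum mean of 10 CPM, with known miRNAs alone, with DESeq2 and without preadipocyte replicate 3. The sum missed the threshold under the 10 other alternatives. With library totals alone the difference was -0.53 (edgeR BH-adjusted p = 0.275). With no low-count filter it was -1.07 (edgeR BH-adjusted p = 0.145), and with replicate number as a block -1.15 (edgeR BH-adjusted p = 0.153).

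**Figure D2:**
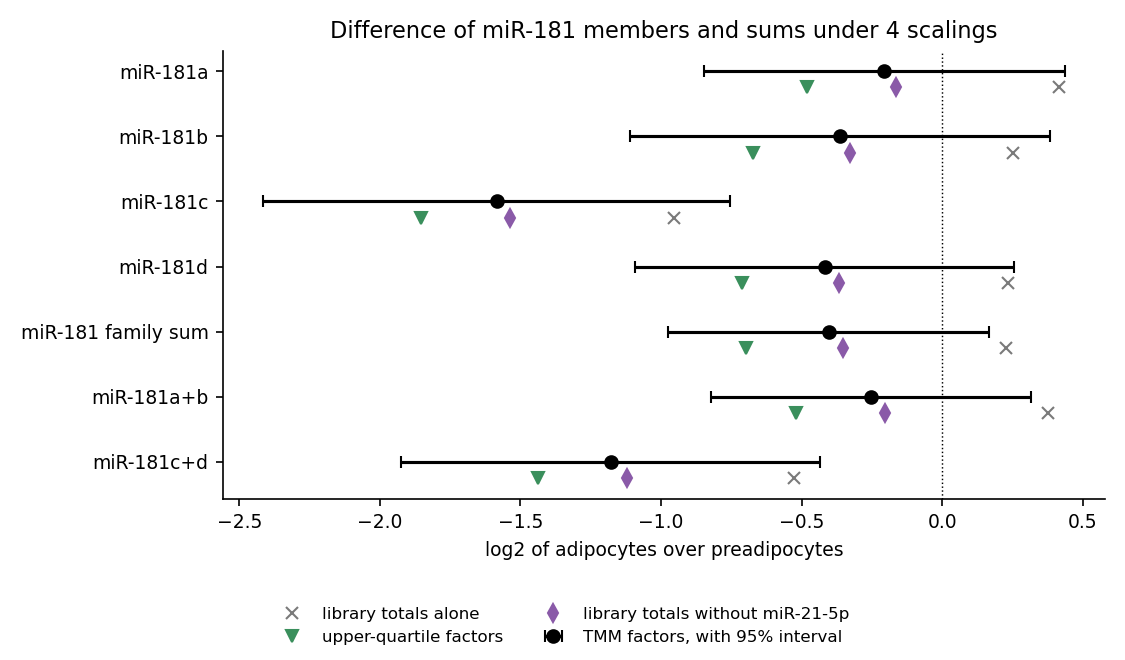
Log2 difference of adipocytes over preadipocytes (x axis) for the 4 members and 3 sums, as the estimate with TMM factors and its 95% interval, and as estimates under 3 other scalings. The points of miR-181c and of the c+d sum lie below 0 under all 4 scalings, while those of miR-181a, miR-181b, miR-181d, the a+b sum and the family sum lie above 0 with library totals alone.

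Ratios of members within a library do not depend on the scaling, and 4 were compared. Reads of miR-181c per read of miR-181a were 0.103, 0.0990 and 0.0968 in the adipocyte libraries, and 0.280, 0.212 and 0.273 in the preadipocyte libraries. The adipocyte values were nearly equal and all below the preadipocyte ones. The log2 ratio averaged -3.33 ± 0.0458 in adipocytes, against -1.98 ± 0.220 in preadipocytes, a difference of -1.34 (SD, n = 3 each; exact two-sided permutation p = 0.1, BH-adjusted p = 0.133). That p of 0.1 is the smallest that 3 libraries against 3 can give, so no ratio could pass the threshold.

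The ratio within the c/d pair also lay apart between the groups. Each ratio whose groups lay apart contains miR-181c, so these ratios are not independent results. How often ratios of other miRNAs lie apart was not tested. There were 0.759, 1.05 and 0.715 reads of miR-181d per read of miR-181c in the adipocyte libraries, against 0.322, 0.447 and 0.366 in the preadipocyte libraries. The log2 ratio was 1.15 higher in adipocytes (exact two-sided permutation p = 0.1, BH-adjusted p = 0.133, n = 3 each), and the groups did not overlap. For the c+d sum per a+b sum the ratios were 0.145, 0.151 and 0.133 in the adipocyte libraries, and 0.286, 0.208 and 0.310 in the preadipocyte libraries. The groups did not overlap, and the log2 difference was -0.89 with the same p-values.

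The a and b members did not separate in this way. Reads of miR-181b per read of miR-181a were 0.252, 0.347 and 0.248 in the adipocyte libraries, and 0.292, 0.473 and 0.201 in the preadipocyte libraries. The highest ratio of each group was in replicate 2, and the groups overlapped. The log2 difference was -0.12 (exact two-sided permutation p = 0.8, BH-adjusted p = 0.8, n = 3 each), and 0.20 without preadipocyte replicate 2.

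As shares of the family's reads, miR-181a made up 68.3% ± 3.33 in adipocytes, against 60% ± 3.69 in preadipocytes, and miR-181b 19.2% ± 2.76 against 19% ± 7.01 (SD, n = 3 each). The share of miR-181c was 6.80% ± 0.404 in adipocytes and 15.4% ± 2.99 in preadipocytes. That of miR-181d was 5.69% ± 0.938 in adipocytes and 5.69% ± 0.567 in preadipocytes.

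**Figure D3:**
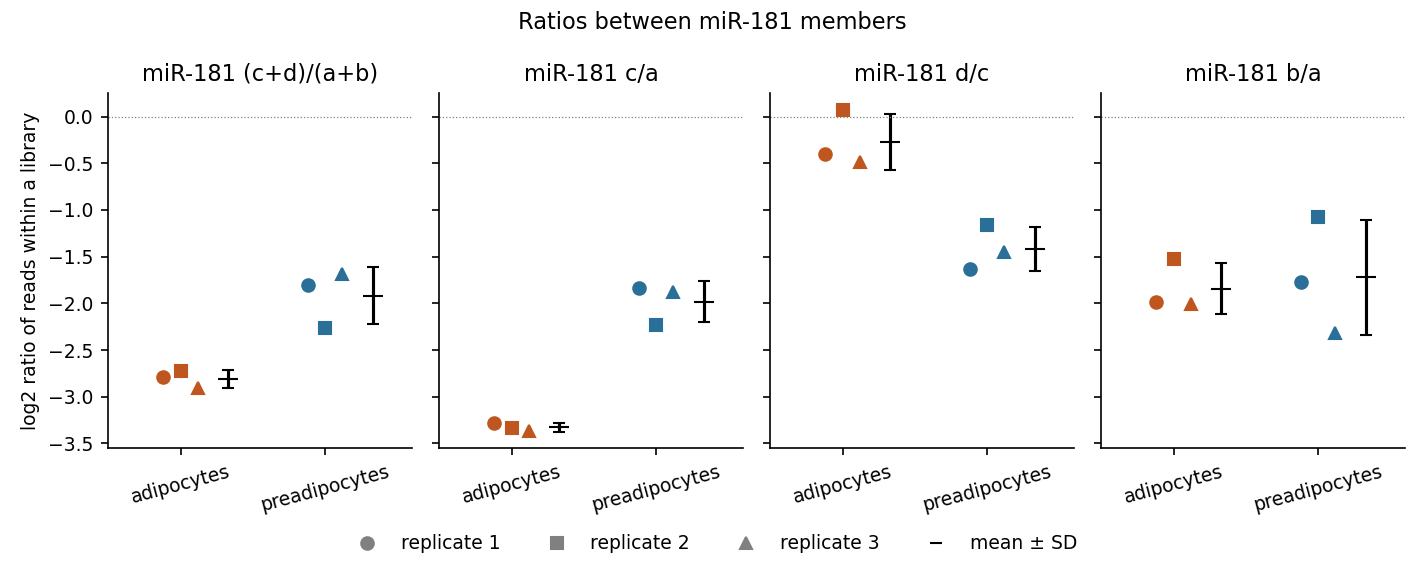
Log2 ratios of reads between miR-181 members within each library (y axis), adipocytes left of preadipocytes, with 1 symbol per replicate and mean ± SD (n = 3 each). The groups lie apart for (c+d)/(a+b), c/a and d/c and overlap for b/a.

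The table also held a row for the mir-181 precursor family of Rfam, a database of RNA families, outside the miRNA rows. It had 11832, 18015 and 14252 reads in the adipocyte libraries, against 4774, 4991 and 6696 reads in the preadipocyte libraries. Every adipocyte library lay above every preadipocyte library, the opposite of miR-181c. Groups that lie apart were common, at 44.7% of the tested miRNAs in CPM in either direction. In a fit of all 948 small RNA rows past the filter, added after the values were seen, it averaged 712 ± 145 CPM in adipocytes, against 309 ± 46.2 CPM in preadipocytes (SD, n = 3 each). The log2 difference was 1.20 (SE 0.28, 95% interval 0.53 to 1.88), which missed the threshold with an edgeR BH-adjusted p of 0.0660. In that fit 2.64% of rows were called higher in adipocytes, as were 2 of 87 Rfam miRNA rows (2.3%), whose median difference was 0.39. Of those 87 rows, 21 had a larger difference than the mir-181 row.

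In adipocyte replicates 1, 2 and 3 the Rfam row held 4749, 11559 and 6608 more reads than the 4 members together. In preadipocyte replicate 2 it held 6 more, and it held fewer in preadipocyte replicates 1 and 3. If each read counted once in a row, at least that surplus in adipocytes was not counted in the 4 rows. That condition is not stated in the sources used here. The sources used here do not record if the 2 kinds of row otherwise share reads.

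**Figure D4:**
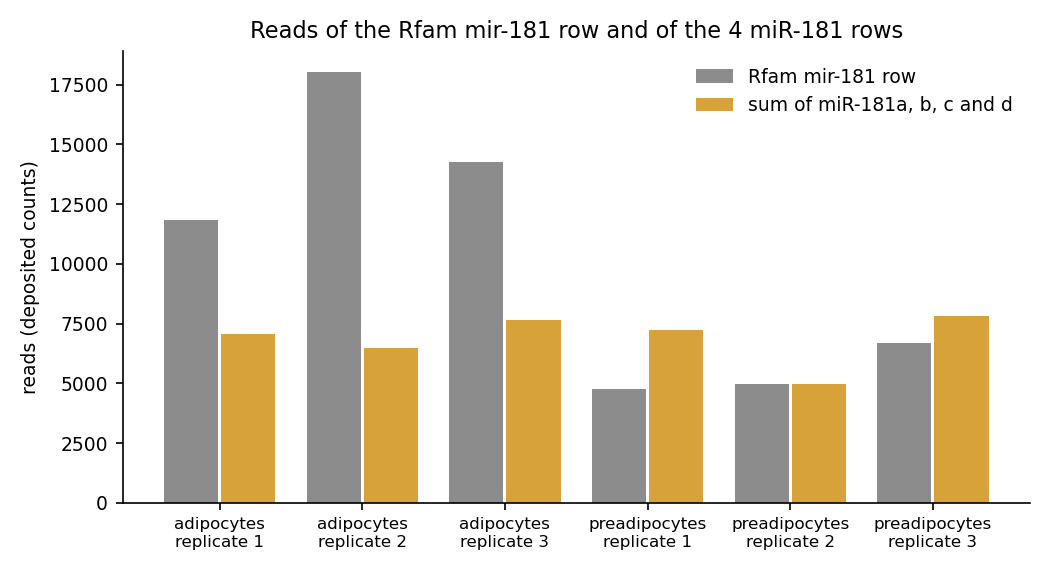
Deposited read counts (y axis, from 0) of the Rfam mir-181 row and of the summed miR-181a, b, c and d rows in each library. The Rfam row is the taller bar in all 3 adipocyte libraries (11832 to 18015 reads) and lies between 4774 and 6696 reads in the preadipocyte libraries, where the sum of the 4 rows is between 4985 and 7805.

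Among 207 other miRNAs with a mean of at least 10 CPM, the 2 whose log2 CPM over the 6 libraries was most like that of miR-181c were miR-23a (Pearson r = 0.987) and miR-24-3p (r = 0.971). Genes of both lie in the next miRNA cluster beside MIR181C and MIR181D in the gene table, although miR-24-3p can also come from a second locus. Next came miR-484 (r = 0.949), miR-145 (r = 0.947) and miR-455-3p (r = 0.947). These are descriptions over 6 libraries that share the group difference and the scaling. After each group was centred on its own mean, r was 0.953 for miR-23a, 0.739 for miR-24-3p, 0.607 for miR-484, 0.838 for miR-145 and 0.703 for miR-455-3p.

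The level of miR-23a, described as acting on glutaminase in human cells, was 5764, 5078 and 6594 CPM in the adipocyte libraries, and 12383, 8145 and 10933 CPM in the preadipocyte libraries. Its log2 difference of -0.85 (SE 0.24) missed the threshold with an edgeR BH-adjusted p of 0.0645. For miR-24-3p the levels were 2812, 1804 and 3026 CPM in adipocytes and 10433, 7512 and 8266 CPM in preadipocytes, and it fell (log2 difference -1.78, SE 0.28; edgeR BH-adjusted p = 0.0242). Both had their lowest library of each group in replicate 2, as did miR-181c. Of the 5 tested rows of miR-23a, miR-24 and miR-27a, 1 was called, miR-24-3p, against 2.42% of all tested miRNAs called lower. At an unadjusted p under 0.05 there were 2 of the 5 (34.1% of all tested miRNAs). DESeq2 called 2 of them, both lower (23.2% of all in either direction). The median log2 difference of the 5 rows was -0.85, against -0.02 over all tested miRNAs. Counts of miR-23b-3p, the b counterpart of miR-23a, were 70, 345 and 349 in adipocytes and 47481, 404 and 830 in preadipocytes. Whether the counting divided reads between miR-23a and miR-23b-3p was not tested.

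Of the 4 rows of that cluster at or above 10 CPM, 2 were unlike miR-181c, the row named miR-24 without an arm (r = 0.071, rank 94 of 207, log2 difference 0.07) and miR-27a-3p (r = 0.193, rank 84). The counts of miR-27a-3p went up and down against those of miR-27b, a near-identical miRNA from another locus. There were 42274, 263217 and 47219 reads of miR-27a-3p in the adipocyte libraries, and 377035, 30386 and 43183 in the preadipocyte libraries. For miR-27b the counts were 324871, 58854 and 281606 in adipocytes and 70444, 235287 and 290454 in preadipocytes. Libraries high in one were low in the other. Their sum ranged from 322071 to 367145 reads in adipocytes and from 265673 to 447479 reads in preadipocytes. For miR-181d the r was 0.870 with miR-23a (rank 5) and 0.779 with miR-24-3p (rank 14). Whether the counting divided reads between miR-27a-3p and miR-27b, or between the miR-181 names, was not tested.

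**Figure D5:**
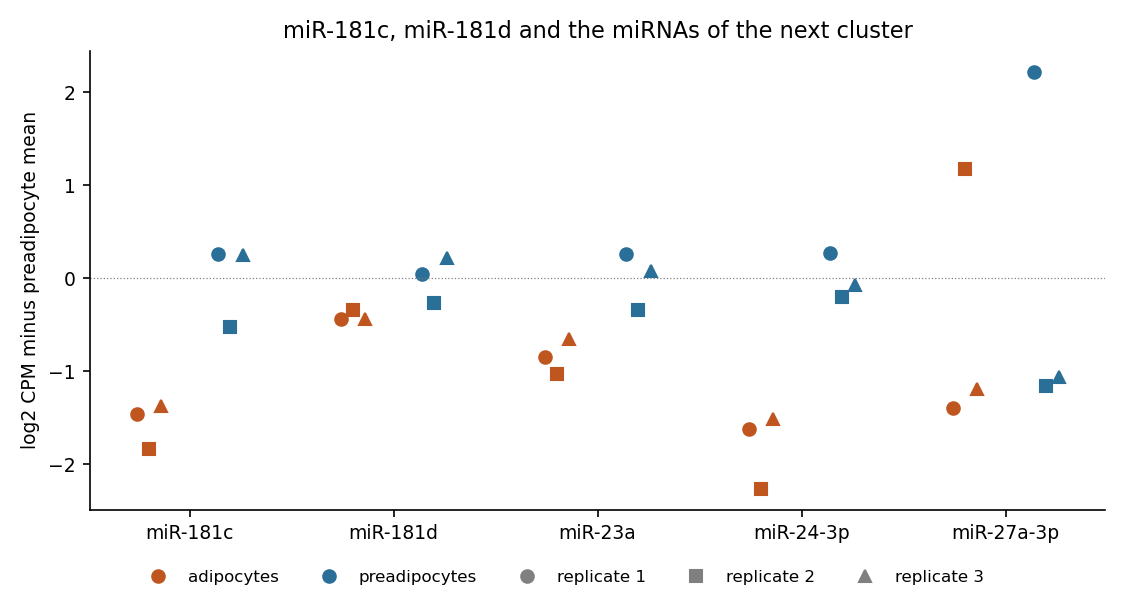
Log2 CPM of miR-181c, miR-181d, miR-23a, miR-24-3p and miR-27a-3p in each library, minus the mean of the preadipocyte libraries (y axis), with adipocytes left of preadipocytes and 1 symbol per replicate. For the first 4 miRNAs the adipocyte libraries lie below the preadipocyte ones, while miR-27a-3p is high in adipocyte replicate 2 and preadipocyte replicate 1.

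The miRNAs most like miR-181a over the same libraries were others. They were miR-143 (r = 0.956), miR-20b (r = 0.927), miR-11977 (r = 0.914), miR-361 (r = 0.797) and miR-421 (r = 0.795). They were picked for likeness to a miRNA whose groups overlap, so nothing is read from their differences between the groups. Among the members themselves, the r of log2 CPM was 0.901 for miR-181c with miR-181d, 0.735 for miR-181a with miR-181c and -0.15 for miR-181a with miR-181b.

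Other miRNAs linked to fat cell differentiation were read in the same fit. Of 20 tested rows described as promoting it, 2 rose, miR-148a and miR-33b, and 0 fell, against 3.86% of all tested miRNAs called higher by edgeR. At an unadjusted p under 0.05 there were 7 of the 20 (34.1% of all tested miRNAs). DESeq2 called 5 of these rows higher and 2 lower (23.2% of all in either direction). Their median log2 difference was 0.57. The 2 most abundant were miR-21-5p (log2 difference -0.82, edgeR BH-adjusted p = 0.0637) and miR-143 (-0.32, edgeR BH-adjusted p = 0.434). Both estimates were negative and missed the threshold. The liver-rich miR-148a averaged 1378 ± 236 CPM in adipocytes, against 430 ± 130 CPM in preadipocytes (log2 difference 1.68, edgeR BH-adjusted p = 0.0309), and miR-33b, hosted by the sterol regulator SREBF1, averaged 37.0 ± 30.1 CPM, against 0.717 ± 0.269 CPM (edgeR BH-adjusted p = 0.0381; SD, n = 3 each). Of 16 rows described as restraining it, 0 passed in edgeR, 3 had an unadjusted p under 0.05 (34.1% of all tested miRNAs did) and DESeq2 called 1 higher and 1 lower (23.2% of all in either direction), with a median of -0.18. The 2 of them with the smallest p were miR-145, with 1292 ± 579 CPM in adipocytes, against 4027 ± 1588 CPM in preadipocytes, and miR-31, at 166 ± 25.5 and 66.0 ± 42.9 CPM.

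Of 8 tested rows of miRNAs linked to NF-kB and inflammation, 1 fell and 0 rose in edgeR, against 2.42% of all tested miRNAs called lower, with a median log2 difference of -0.48. At an unadjusted p under 0.05 there were 2 of the 8 (34.1% of all tested miRNAs). DESeq2 called 2, both lower (23.2% of all in either direction). The called one was miR-146a, which restrains Toll-like receptor signalling, with 1, 1 and 4 reads in the adipocyte libraries, and 199, 81 and 73 reads in the preadipocyte libraries (edgeR BH-adjusted p = 0.0134). The most abundant of the list, miR-21-5p, had a log2 difference of -0.82 with no overlap between the groups and missed the threshold (edgeR BH-adjusted p = 0.0637). The adipocyte mean of miR-125b, 1980 ± 286 CPM, was set against 1711 ± 316 CPM in preadipocytes and did not pass.

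The miR-181 family is abundant in lymphoid cells, so markers of other cell types were listed beside it. The 6 blood and lymphoid names summed to 0.568 to 1.23 CPM in adipocytes and 1.95 to 4.97 CPM in preadipocytes. Of these, miR-142-3p had 1 read in adipocyte replicate 1 and was at 0 in the other 5 libraries, and miR-223 and miR-150 had at most 2 reads in any library. Except in adipocyte replicate 2, most of the sum was miR-451, an erythroid miRNA. It had 15, 4 and 17 reads in the adipocyte libraries, against 44, 54 and 29 reads in the preadipocyte libraries. In adipocyte replicate 2 miR-486 also had 4 reads and miR-144 had 3. The groups of miR-451 lay apart and its log2 difference was -2.33 (edgeR BH-adjusted p = 0.0637), lower in adipocytes as for miR-181c. Endothelial miR-126 summed to 43.0 to 67.8 CPM in adipocytes and 114 to 455 CPM in preadipocytes, and like miR-181c it was lower in every adipocyte library. Such a separation in CPM, with adipocytes below, was found for 20.5% of all tested miRNAs. The part of blood or endothelial cells in the difference of miR-181c was not tested. The epithelial names reached at most 1.06 CPM, the muscle names 20.6 to 25.8 CPM in adipocytes and 21.3 to 52.8 CPM in preadipocytes, and the neural names 61.4 to 69.2 CPM in adipocytes and 53.9 to 95.6 CPM in preadipocytes. No epithelial row passed the filter, and edgeR's test called 0 of 1 blood, 0 of 2 endothelial and 0 of 4 neural rows. At an unadjusted p under 0.05 these counts were 1, 1 and 0 (34.1% of all tested miRNAs), and DESeq2 called the same numbers, all lower (23.2% of all in either direction). Of 2 muscle rows 1 fell, miR-133a, against 2.42% of all tested miRNAs called lower by edgeR. Of 8 tested mesenchymal rows, 1 rose (miR-199a-3p, whose gene overlaps that of miR-3604) and 0 fell in edgeR, which called 3.86% of all tested miRNAs higher. The row of miR-199a-3p averaged 6756 CPM in adipocytes and 16.2 CPM in preadipocytes. That of miR-3604 went the other way, with 28.9 CPM in adipocytes and 3374 CPM in preadipocytes. Whether the counting divided reads between these rows was not tested. Of the 8 mesenchymal rows, 4 had an unadjusted p under 0.05 (34.1% of all tested miRNAs). DESeq2 called 2 of them higher and 2 lower (23.2% of all in either direction). In bulk cultures, fewer cells of a type and less RNA per cell cannot be told apart, and mRNA markers of adipocytes were not measured.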

How the data were processed

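Per the labels' protocols, Trizol RNA was cut to 18 to 30 nt on a gel and ligated to adapters. The submitters' processing notes name Bowtie2; not given in the sources used here are the build, the miRNA release and how reads that match several miRNAs were counted. The deposited table gives raw read counts and, per the file headers, TPM values, each equal to its count over a constant for that library, without length. Columns were matched to samples by title.

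Counts of 879 known and predicted miRNAs were tested with edgeR 4.0.16 in R 4.3.3 (TMM, filterByExpr defaults, glmQLFTest, two-sided, a term for group, BH, threshold 0.05); 95% intervals are approximate, from the SE. Sums replaced the member rows and were adjusted over the whole table. The 4 genome-feature rows (5.29% to 18.9% of the table) named no gene and were left out. Log2 ratios had 0.5 added to each count and were tested in SciPy 1.17.1 by exact permutation. DESeq2 1.42.0, other scalings and filters, left-out libraries and a replicate block were alternatives. Named miRNAs are the members, the 5 most correlated with miR-181a and with miR-181c, genomic neighbours and up to 4 per list. miR-27b, miR-23b-3p, miR-3604 and single blood markers were added after their values were seen. Members and lists were chosen with earlier results of these data known. Steps were tested on simulated data.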

Additional observations from a re-analysis of the deposited data

Results flagged for a closer look

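The Rfam mir-181 row was singled out because it lies outside the tested miRNA rows and was higher in every adipocyte library than in any preadipocyte library. Among the tested miRNAs the groups lay apart in CPM, in either direction, for 44.7%, and this share was not counted for Rfam rows. As CPM of miRNA reads without factors it was 745 to 1192 in adipocytes and 274 to 344 in preadipocytes (exact two-sided permutation p = 0.1, the smallest possible with 3 libraries against 3). That p follows from the separation for which the row was singled out, so it adds no support. Its log2 difference was 1.20 (edgeR BH-adjusted p = 0.0660). It passed with library totals alone (1.49), with DESeq2 (1.17) and without preadipocyte replicate 3 (1.34, edgeR BH-adjusted p = 0.0186), and not without any other single library (0.99 to 1.30).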

How the results depend on the processing

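Of the members, miR-181c kept its direction under every alternative run and missed the threshold with library totals alone (-0.95), with no low-count filter (-1.48), with the Rfam and piRNA rows included (-1.31, added after seeing the data) and with the replicate block (-1.55, edgeR BH-adjusted p = 0.125), while leaving out 1 library gave -1.87 to -1.45. With the left-out libraries counted, miR-181c passed under 7 alternatives and missed the threshold under 9. With library totals alone the signs of miR-181a (0.41), miR-181b (0.25), miR-181d (0.23), the a+b sum (0.38) and the family sum (0.23) turned positive; miR-181a was also positive with the Rfam and piRNA rows included (0.069). With miR-21-5p, which held 64% to 80.2% of the miRNA reads, taken out of those totals, the same values were -0.16, -0.33, -0.37, -0.20 and -0.35, and the median of all miRNAs was -0.002, against 0.62 with the full totals. The c+d sum passed with upper-quartile factors (-1.44), a minimum mean of 10 CPM (-1.38), known miRNAs alone (-1.23) and DESeq2 (-1.20). It missed the threshold with library totals alone (-0.53), no low-count filter (-1.07) and the replicate block (-1.15). With 1 library left out it ranged from -1.40 to -1.05 and passed in 1 of 6 fits. The b/a ratio ranged from -0.41 to 0.20 in such fits. The cause of the other changes was not tested. The count of 26 called miRNAs was 49 with upper-quartile factors, 97 with library totals alone, 43 with a minimum mean of 10 CPM, 59 with known miRNAs alone, 96 with DESeq2, 1 with the replicate block and 1 to 148 with 1 library left out.

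Deviations of same-numbered libraries correlated at 0.04, -0.31 and 0.02, and those of differently numbered libraries at -0.25 to 0.25. With 3 libraries per group these values cannot tell if the replicate numbers pair the samples. Signs of all members, sums and ratios were kept with the replicate block. The 3-against-3 design, not read depth, limits the ratio tests.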
